A study of Glycine max with 12 samples.

Results

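The genes described here are those of the soybean ethylene system: the genes that make ethylene, the receptors that perceive it, and the ethylene-responsive transcription factors (ERFs) that are named after it. A gene was taken if its deposited description, in any case, contained "ethylene-responsive transcription factor", "ethylene response factor", "1-aminocyclopropane-1-carboxylate" or "ethylene receptor". The first phrase was in 192 descriptions, the second in 0, the third in 51 and the fourth in 5. Glyma.09G072000 and Glyma.15G180000 were left out by name. This gave 246 of 46446 genes. They comprised 29 synthesis genes (16 of 1-aminocyclopropane-1-carboxylate, or ACC, synthase and 13 of ACC oxidase), 5 receptor genes and 190 factor genes. A further 20 genes are described as homologs of ACC oxidase or as ACC oxidase-like but lack its orthology number, and 2 are described as D-cysteine desulfhydrase or ACC deaminase. Both sets are given apart. Identifiers are those of the soybean annotation Wm82.a4.v1, and the digits before the letter G are the chromosome.

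Leaf mRNA of the soybean cultivar HN95 (wild type) was sequenced 7 days after a foliar spray, with 3 libraries in each of 4 groups. The groups were 200 mg/L nano-SiO2 together with 300 µM melatonin (nano-SiO2+MT), 300 µM melatonin alone (MT), 200 mg/L nano-SiO2 alone, and a control, whose spray the labels do not describe. Plants of all groups, controls included, grew in 20 kg of peat and vermiculite that received 3 L of a saline-alkali solution (NaCl and Na2CO3 at 40 mM each with NaHCO3 and Na2SO4 at 320 mM each), and no unstressed plants were analysed here. Libraries of a group are labelled as biological replicates, but not as separate plants or pots, so p-values measure the spread between these libraries, part of which may be technical.

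Plants make ethylene from S-adenosylmethionine through ACC: ACC synthase forms ACC, usually the step that limits the rate, and ACC oxidase turns it into ethylene. The receptors are negative regulators that keep the kinase CTR1 active until ethylene binds; ethylene then releases EIN2 and the EIN3 factors, which raise ERF genes. ERFs bind GCC-box or DRE elements through one AP2 domain, and members of the sister AP2 subfamily, which carry the same words in their descriptions, have a pair of such domains and mostly act in development. Many ERFs answer to salt, drought, wounding or pathogens as well as to ethylene, and some are repressors, so the name of the family does not fix what a member does.

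Values are FPKM (fragment numbers divided by transcript length and by the size of the library) as deposited. Log2 changes were computed on FPKM + 1, which understates the change of low genes, and a gene was tested if 3 or more libraries reached 1 FPKM. It was called at a Benjamini-Hochberg adjusted p under 0.05 over all 28260 tested genes, in limma fitted to all 12 libraries. Summed FPKM per library ran from 522120 to 559092 and relative depth, read from the step between low values, from 0.848 to 1.27 times the mean. Leaf marker genes (Rubisco small subunit and chlorophyll a-b binding proteins, 31 genes) summed to between 48570 and 66878 FPKM with nano-SiO2+MT, 43838 and 62689 FPKM with MT, 27587 and 46184 FPKM with nano-SiO2 and 46498 and 74763 FPKM in control leaves, and seed storage genes to at most 0.254 FPKM. All libraries thus carried the markers of the labelled tissue, at lower sums in nano-SiO2 than in control leaves. A list by root and nodule words (44 genes), which also takes in nodulin-like proteins, summed to between 741 and 1151 FPKM over all libraries. Of 28 tested leaf markers, 26 had a log2 change below 0 with nano-SiO2 (median -0.32, beside 0.10 for all tested genes) and 1 was called lower; their part in the comparisons with nano-SiO2 was not tested. In bulk leaf RNA, fewer cells of a type and less RNA per cell cannot be told apart.

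Most genes of the ethylene system were at low levels in these leaves. Of the 246, 92 (37.4%) passed the filter, against 60.8% of all genes, and 85 had a mean of at least 1 FPKM. By role, 8 of 29 synthesis genes, 4 of 5 receptors, 9 of 20 ACC oxidase homologs, 1 of 2 deaminase genes and 70 of 190 factors were tested. The 154 others had a median mean of 0.0555 FPKM and never exceeded 1.68 FPKM in a library (Glyma.04G217400, described as ABR1), and 3 of them were listed at 0 in every library. Among factors, tested shares ran from 14.3% of the 14 genes of group X and 16.7% of the 18 of group V to 75.0% of the 12 of group I and 80.0% of the 5 of group II. These groups were assigned here from the Arabidopsis names and numbers in the descriptions, so the limits of group II with groups III and VII are approximate. Bare numbers were read as Arabidopsis ones, so the split between groups VIII and IX is approximate for genes described that way. Glyma.11G014800 (ERF020), counted in group III here, may belong to group II.

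**Figure D1:**
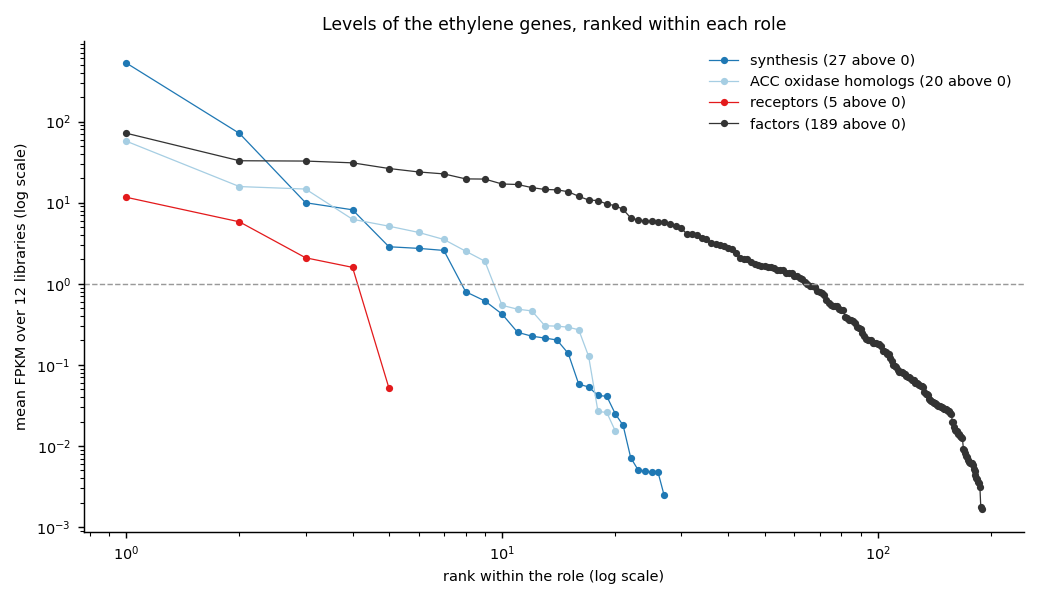
Mean FPKM over all 12 libraries (log scale) of each gene with a value above 0, ranked within its role (log scale); the dashed line is at 1 FPKM. One ACC oxidase gene stands at 526 FPKM, receptors lie at or below 11.6 FPKM, and the factors fall off slowly from 71.8 FPKM.

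ACC oxidase transcripts were plentiful and ACC synthase transcripts scarce, and neither kind passed the test in any comparison. ACC oxidase Glyma.02G268000, with a mean of 526 FPKM, ranked 114th among all genes of the table and held 80.2% to 88.3% of the FPKM of the 13 ACC oxidase genes. It had 444, 385 and 504 FPKM in nano-SiO2+MT leaves, 574, 461 and 758 FPKM in MT leaves, 614, 686 and 496 FPKM in nano-SiO2 leaves, and 382, 506 and 506 FPKM in control leaves. All 4 groups overlap, and the log2 changes were -0.06 (adjusted p = 0.953) with nano-SiO2+MT, 0.34 (adjusted p = 0.429) with MT and 0.36 (adjusted p = 0.526) with nano-SiO2, each with SE 0.20. Its nearest in level, Glyma.14G049500, averaged 71.5 FPKM and had log2 changes of -0.36, -0.35 and -0.03 in the same order, all with adjusted p of at least 0.38.

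The third ACC oxidase by level, Glyma.06G117200, had 11.2, 17.1 and 13.8 FPKM in nano-SiO2+MT leaves, 7.81, 6.83 and 6.14 FPKM in MT leaves, 7.97, 8.34 and 13.5 FPKM in nano-SiO2 leaves, and 7.10, 8.95 and 11.1 FPKM in control leaves. All libraries of the combined spray lay above all MT libraries, but the difference (log2 0.91, SE 0.21) had an adjusted p of 0.15. Glyma.04G245900 showed the same arrangement in its means, 11.0 ± 5.08 FPKM with nano-SiO2+MT, 4.41 ± 0.696 FPKM with MT, 10.6 ± 6.19 FPKM with nano-SiO2 and 6.66 ± 0.806 FPKM in control leaves (SD, n = 3), with an adjusted p of 0.757 between the combined spray and MT. In Glyma.09G008400 a single library, nano-SiO2 3 at 11.4 FPKM, stood apart from the other 11, which lay between 1.06 and 3.73 FPKM.

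A single ACC synthase gene of 16, Glyma.08G018000, passed the filter. It had 2.22, 3.09 and 1.56 FPKM in nano-SiO2+MT leaves, 2.93, 1.93 and 2.30 FPKM in MT leaves, 3.26, 2.20 and 2.12 FPKM in nano-SiO2 leaves, and 3.21, 3.20 and 2.94 FPKM in control leaves. Control libraries sat in the upper part of the range and overlapped with each spray group except MT, whose highest library was just below the lowest control. The log2 changes were -0.35, -0.29 and -0.24 for nano-SiO2+MT, MT and nano-SiO2, with adjusted p of 0.49, 0.48 and 0.63. Summed over all 16 genes, ACC synthase came to 2.89 ± 0.923 FPKM with nano-SiO2+MT, 3.10 ± 0.713 FPKM with MT, 3.34 ± 0.638 FPKM with nano-SiO2 and 3.89 ± 0.320 FPKM in control leaves (SD, n = 3), while ACC oxidase summed to 539 ± 65.4, 681 ± 167, 710 ± 94.4 and 566 ± 85.1 FPKM.

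Each of the 4 tested receptor genes had a higher mean in every spray group than in control leaves on the log2 scale, and none was called. Their summed FPKM, the untested receptor Glyma.20G087000 included, was 22.6 ± 3.34 with nano-SiO2+MT, 23.8 ± 3.11 with MT, 21.2 ± 2.78 with nano-SiO2 and 17.2 ± 3.76 in control leaves (SD, n = 3). The median log2 change was 0.31 with nano-SiO2+MT, 0.38 with MT and 0.28 with nano-SiO2, beside -0.05, -0.05 and 0.10 for all tested genes, and the signs were the same after quantile normalization and median-ratio scaling. The ethylene receptor Glyma.09G002600, the most abundant, had 12.2, 9.76 and 14.1 FPKM in nano-SiO2+MT leaves, 12.2, 12.8 and 15.3 FPKM in MT leaves, 12.0, 13.1 and 9.40 FPKM in nano-SiO2 leaves, and 7.20, 10.8 and 11.0 FPKM in control leaves. MT libraries all lay above the controls, and the other spray groups overlapped them (adjusted p = 0.59, 0.21 and 0.62 for nano-SiO2+MT, MT and nano-SiO2).

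Glyma.20G202200, described as ethylene receptor 2, came nearest to a call. It had 1.78, 2.27 and 2.09 FPKM in nano-SiO2+MT leaves, 1.86, 1.43 and 1.54 FPKM in MT leaves, 1.52, 1.80 and 1.54 FPKM in nano-SiO2 leaves, and 1.06, 1.22 and 1.02 FPKM in control leaves, so that no sprayed library reached down to the controls. For nano-SiO2+MT against control the log2 change was 0.54 (SE 0.12, adjusted p = 0.0508). It crossed the threshold with a pseudocount of 0.1 (adjusted p = 0.0461), quantile normalization (0.0301), median-ratio scaling (0.0264), plain eBayes (0.0441) and without nano-SiO2 2 (0.04995). The receptors Glyma.12G241700 and Glyma.18G069351 averaged 5.80 and 2.09 FPKM, with log2 changes between 0.18 and 0.64 over the sprays and adjusted p of at least 0.32.

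**Figure D2:**
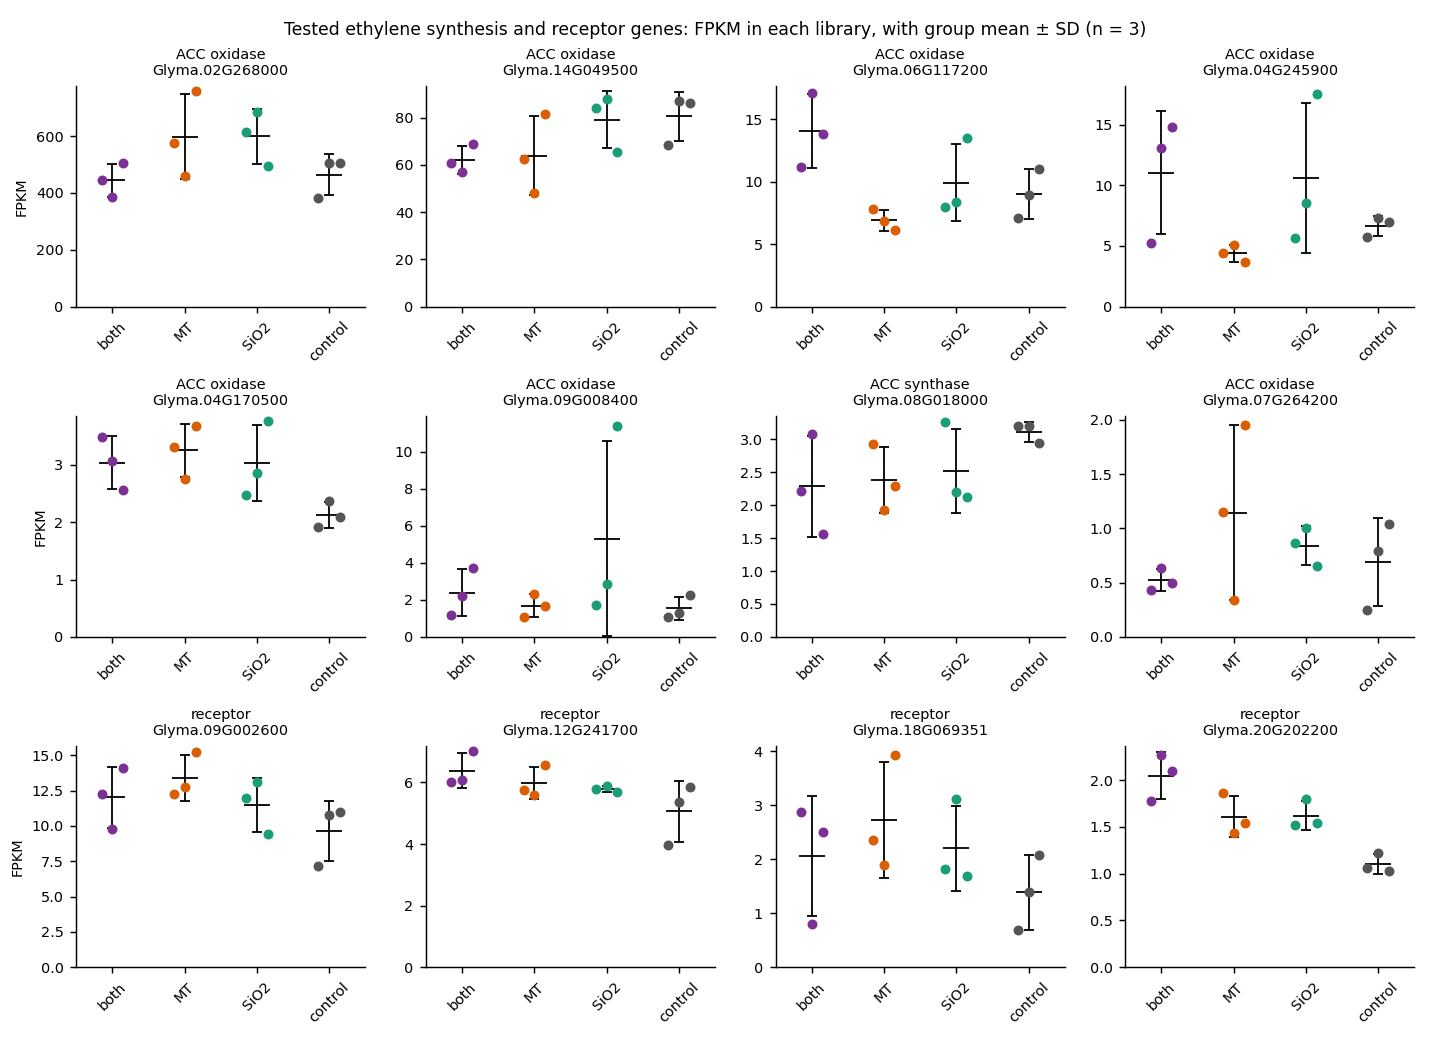
FPKM of the 8 tested synthesis genes and 4 tested receptor genes in each library (points) with the group mean and SD (bars, n = 3), groups from left to right nano-SiO2+MT ("both"), MT, nano-SiO2 ("SiO2") and control. Receptor Glyma.20G202200 has its 3 control libraries, 1.02 to 1.22 FPKM, below all 9 sprayed ones.

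The ACC oxidase homologs and the deaminase gene also held 0 calls in every comparison. The 3 most abundant homologs, 2-oxoglutarate-dependent dioxygenases by family rather than proven ACC oxidases, were Glyma.15G257300 at a mean of 57.2 FPKM, Glyma.03G104300 at 15.8 FPKM and Glyma.18G111000 at 14.7 FPKM. Over the 9 tested homologs the median log2 change was 0.09 with nano-SiO2+MT, 0.20 with MT and 0.25 with nano-SiO2. The D-cysteine desulfhydrase or ACC deaminase Glyma.05G248600, whose bacterial counterparts break down ACC, had a narrow range, 18.2 to 18.6 FPKM with nano-SiO2+MT, 20.2 to 20.9 FPKM with MT, 16.4 to 20.4 FPKM with nano-SiO2 and 16.9 to 18.2 FPKM in control leaves.

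All called members were factors, and MT against control held most of them. Of 92 tested members, MT against control called 9 (9.78%), of which 6 were higher and 3 lower; the shares over all tested genes were 3.35%, 1.66% higher and 1.69% lower. For nano-SiO2+MT against control the count was 2, both higher, beside 1.37% over all tested genes (0.729% higher, 0.637% lower). For nano-SiO2 against control limma called 0 members, beside 0.492% over all tested genes (0.389% higher, 0.103% lower), and 15 members (16.3%) had an unadjusted p under 0.05, beside 10.7% of all tested genes. The MT count fell to 4 without control 2 and to 5 without control 3. Xylem and secondary wall markers (cellulose synthase subunits, laccases and fasciclin-like proteins, 93 genes) were lower in all MT libraries than in any control, and summed to between 85.6 and 240 FPKM with nano-SiO2+MT, 73.1 and 105 FPKM with MT, 221 and 497 FPKM with nano-SiO2 and 180 and 298 FPKM in control leaves, with 0 of them at 0 throughout. Of the 39 tested markers 11 were called lower with MT (median log2 change -0.99), and their part in the result was not tested.

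The factor with the smallest p in both comparisons was Glyma.20G070100, described as ERF106, a group IX member; in Arabidopsis group IX holds activators of stress and defence genes such as ERF1 and ERF6. It had 29.8, 20.3 and 24.3 FPKM in nano-SiO2+MT leaves, 29.8, 22.5 and 28.5 FPKM in MT leaves, 16.4, 21.5 and 13.9 FPKM in nano-SiO2 leaves, and 8.74, 9.27 and 9.32 FPKM in control leaves. Every sprayed library lay above every control, and all libraries with nano-SiO2 alone lay above the controls and below the MT libraries. The log2 change was 1.34 with nano-SiO2+MT (SE 0.17, adjusted p = 0.00287), 1.46 with MT (SE 0.17, adjusted p = 0.000521) and 0.83 with nano-SiO2 (SE 0.17, adjusted p = 0.0622). Both calls held in all 12 fits with a library left out.

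Its neighbour in the table, Glyma.20G070000, is described as ERF105, is also of group IX and was the second most abundant factor at a mean of 32.9 FPKM. It had 36.4, 34.4 and 35.2 FPKM in nano-SiO2+MT leaves, 44.7, 37.7 and 28.7 FPKM in MT leaves, 28.5, 39.9 and 33.6 FPKM in nano-SiO2 leaves, and 26.5, 26.4 and 22.5 FPKM in control leaves. The controls were the lowest libraries here too, but no comparison was called (log2 changes 0.48, 0.52 and 0.41, adjusted p = 0.21, 0.11 and 0.41). The sources used here do not say how fragments shared by close copies were divided, so the split between these neighbours is uncertain.

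Glyma.20G195900, described as a putative ERF with no number, followed the pattern of Glyma.20G070100 at a lower level. It had 3.39, 3.17 and 4.11 FPKM in nano-SiO2+MT leaves, 4.77, 4.22 and 3.93 FPKM in MT leaves, 2.94, 2.45 and 1.92 FPKM in nano-SiO2 leaves, and 1.59, 1.70 and 1.72 FPKM in control leaves. Neither group with MT overlapped with the control or with nano-SiO2. The log2 change was 0.77 with nano-SiO2+MT (SE 0.14, adjusted p = 0.016), 0.99 with MT (SE 0.14, adjusted p = 0.0015) and 0.35 with nano-SiO2 (adjusted p = 0.393). The MT call held in all 12 leave-one-out fits; that of the combined spray held in 8 and was lost without control 2, control 3, nano-SiO2+MT 1 or nano-SiO2+MT 3 (adjusted p up to 0.0835).

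These 2 genes share an annotation that the selection did not use. In the ontology column of the deposited table, 3 genes carry the term "negative regulation of wax biosynthetic process", and 2 of them are Glyma.20G070100 and Glyma.20G195900. Another term, "positive regulation of cutin biosynthetic process", is carried by 14 genes, all of them members, of which 2 were tested. Glyma.07G021000, AP2-like, averaged 2.91 ± 0.606 FPKM with nano-SiO2+MT, 2.65 ± 0.310 FPKM with MT, 2.25 ± 0.452 FPKM with nano-SiO2 and 3.88 ± 0.346 FPKM in control leaves (SD, n = 3), and Glyma.08G297000 had log2 changes of -0.41, -0.60 and -0.37. Neither was called (adjusted p of at least 0.062), but Glyma.07G021000 passed in nano-SiO2 against control after quantile normalization (adjusted p = 0.0449), and Glyma.08G297000 in MT against control without nano-SiO2+MT 2 (0.0374) or nano-SiO2+MT 3 (0.0476). These terms were picked after the values were seen, out of several looked at. Of 6 tested members with the term "response to salt stress", 2 had a log2 change above 0 with MT (median -0.31). Of 10 tested members with "negative regulation of ethylene-activated signaling pathway", 10 did (median 0.30). They include receptors and the called ERF4 and ERF6 genes, which are also given on their own here. With "response to chitin" 11 of 13 did (median 0.52), and with "response to water deprivation" 7 of 10 did (median 0.15). The median of all tested genes was -0.05.

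Of the other 4 factors called higher with MT, 2 were counted in group IX and 2 in group VIII, where Arabidopsis members carry the EAR motif of repressors. Glyma.10G118900, described as ERF105, had 10.7, 10.9 and 11.2 FPKM in nano-SiO2+MT leaves, 14.9, 15.4 and 11.9 FPKM in MT leaves, 9.54, 10.6 and 9.47 FPKM in nano-SiO2 leaves, and 8.54, 7.69 and 8.37 FPKM in control leaves. All MT libraries lay above those of the other groups, and group means descended from MT over nano-SiO2+MT and nano-SiO2 to the control (MT against control log2 0.71, SE 0.12, adjusted p = 0.00511, called in all 12 leave-one-out fits). Glyma.12G117000, described as ERF9, a repressor of defence genes in Arabidopsis, had 1.68, 2.92 and 2.10 FPKM in nano-SiO2+MT leaves, 3.02, 4.49 and 2.85 FPKM in MT leaves, 1.91, 2.73 and 2.55 FPKM in nano-SiO2 leaves, and 1.45, 1.37 and 1.30 FPKM in control leaves. Its MT call (log2 0.89, SE 0.17, adjusted p = 0.0132) held in 9 of 12 leave-one-out fits. Glyma.06G236400, described as ERF4, averaged 1.05 ± 0.0827 FPKM with nano-SiO2+MT, 2.16 ± 0.137 FPKM with MT, 1.55 ± 0.364 FPKM with nano-SiO2 and 1.20 ± 0.189 FPKM in control leaves (SD, n = 3), and its call (log2 0.52, adjusted p = 0.0494) held in 2 of 12 (adjusted p up to 0.196).

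Glyma.12G226600, described as ERF6, was high with MT alone and not with the combined spray. It was counted in group IX from its number, that of an Arabidopsis factor downstream of MAP kinases in osmotic stress and defence. In the ontology column it carries "negative regulation of ethylene-activated signaling pathway". Glyma.06G236400 (ERF4) and Glyma.18G091600 (ERF7), counted in group VIII, carry that term too, so the group of Glyma.12G226600 is uncertain. It had 1.16, 1.20 and 1.30 FPKM in nano-SiO2+MT leaves, 3.08, 3.51 and 2.42 FPKM in MT leaves, 0.931, 2.08 and 2.04 FPKM in nano-SiO2 leaves, and 0.885, 0.923 and 0.992 FPKM in control leaves. MT libraries lay above all others, and the combined spray lay between 2 of the nano-SiO2 libraries and the controls. The change with MT was 1.04 (SE 0.17, adjusted p = 0.00566, called in all 12 leave-one-out fits) and with nano-SiO2+MT 0.20 (SE 0.17, adjusted p = 0.753).

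For this gene MT had a smaller effect with nano-SiO2 than without it, with an interaction of -1.29 on the log2 scale (SE 0.25, adjusted p = 0.0366). It was the 1 member of 92 called in the interaction, beside 0.524% of all tested genes (0.12% higher, 0.403% lower). The call held in 3 of 12 leave-one-out fits (adjusted p up to 0.108), with no filter the adjusted p was 0.226, and the direct contrast of nano-SiO2+MT against MT had a log2 change of -0.84 and an adjusted p of 0.0891. ERF4 had the next smallest interaction p (log2 -0.83, SE 0.19, adjusted p = 0.0975).

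The 3 factors called lower with MT came from groups III, I and V. Glyma.17G143900, described as ERF039 and of group III, the DREB-like group, had 2.65, 3.74 and 2.31 FPKM in nano-SiO2+MT leaves, 1.21, 2.69 and 2.22 FPKM in MT leaves, 3.29, 4.07 and 4.54 FPKM in nano-SiO2 leaves, and 5.69, 6.10 and 4.48 FPKM in control leaves. MT libraries lay below all of the controls and all of the nano-SiO2 libraries. The change with MT was -1.10 (SE 0.20, adjusted p = 0.00878; 0.0539 without control 2), and with nano-SiO2+MT -0.73 (adjusted p = 0.103).

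Glyma.12G110400, described as ERF053 and of group I, whose Arabidopsis namesake takes part in drought responses, averaged 1.39 ± 0.200 FPKM with nano-SiO2+MT, 0.935 ± 0.278 FPKM with MT, 1.97 ± 0.202 FPKM with nano-SiO2 and 1.96 ± 0.279 FPKM in control leaves (SD, n = 3), a change with MT of -0.62 (SE 0.14, adjusted p = 0.0295). Glyma.04G067200, described as SHINE 2 and of group V, named after activators of wax and cutin synthesis in Arabidopsis, averaged 0.957 ± 0.431 FPKM with nano-SiO2+MT, 0.731 ± 0.252 FPKM with MT, 1.53 ± 0.141 FPKM with nano-SiO2 and 1.84 ± 0.180 FPKM in control leaves (SD, n = 3), a change with MT of -0.72 (SE 0.17, adjusted p = 0.0327). Each of these 2 calls held in 7 of 12 leave-one-out fits, with adjusted p up to 0.112 for ERF053 and 0.144 for SHINE 2. A second gene described as SHINE 2, Glyma.06G068800, had a like change with MT (-0.68) but a wider spread (SE 0.25, adjusted p = 0.17).

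**Figure D3:**
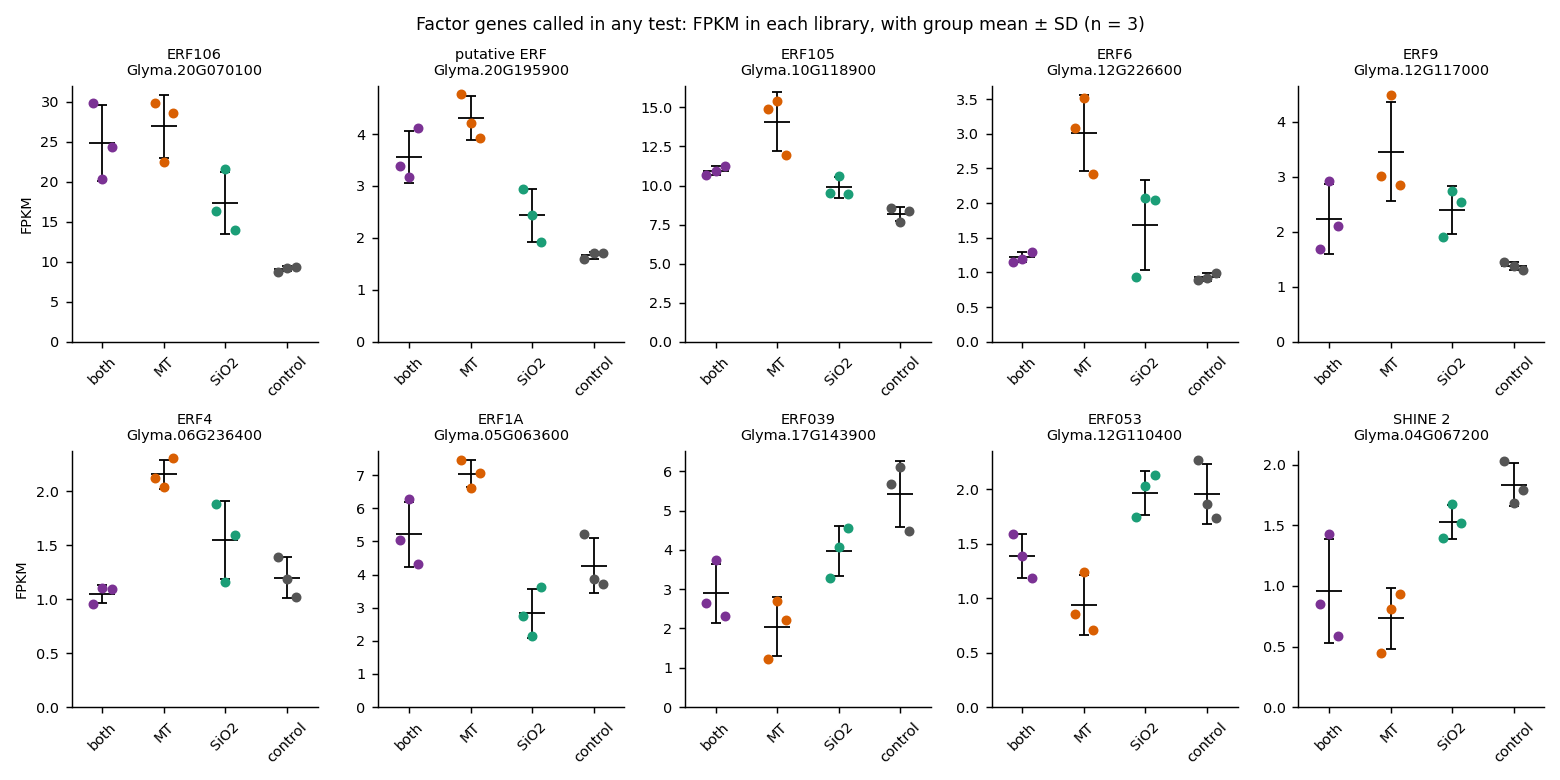
FPKM of the 10 factor genes called in any of the 7 tests, in each library (points) with the group mean and SD (bars, n = 3), groups from left to right nano-SiO2+MT ("both"), MT, nano-SiO2 ("SiO2") and control. ERF106 (Glyma.20G070100) reaches 22.5 to 29.8 FPKM with MT against at most 9.32 FPKM in control leaves, while ERF6 (Glyma.12G226600) is high with MT alone.

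The F test over the 4 groups called 8 members, where 4.12% of all tested genes were called. They were the factors above without ERF4 and SHINE 2, and Glyma.05G063600, described as ERF 1A, of group IX (adjusted p = 0.0122). That gene had 5.06, 6.26 and 4.33 FPKM in nano-SiO2+MT leaves, 7.45, 6.62 and 7.06 FPKM in MT leaves, 2.76, 2.14 and 3.61 FPKM in nano-SiO2 leaves, and 5.23, 3.88 and 3.70 FPKM in control leaves. It was highest with MT and lowest with nano-SiO2, whose libraries lay below all others. Neither MT against control (log2 0.62, SE 0.17, adjusted p = 0.0628) nor nano-SiO2+MT against nano-SiO2 (log2 0.70, SE 0.17, adjusted p = 0.0551) passed on its own. Its neighbour in the table, Glyma.05G063500, described as ERF5, had a log2 change of 0.61 with MT (adjusted p = 0.084).

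No member was called between the combined spray and either single spray. In nano-SiO2+MT against nano-SiO2, 0 of 92 were called. There 18 (19.6%) had an unadjusted p under 0.05, beside 18.5% of all tested genes. Of all tested genes 1.53% were called in this comparison, 0.308% higher and 1.22% lower. In nano-SiO2+MT against MT, 0 of 92 were called. There 12 of 92 had an unadjusted p under 0.05, a larger share than the 4.59% of all tested genes. Of all tested genes 0.294% were called in this comparison, 0.0672% higher and 0.226% lower. Other settings of limma called at most 1 member in each comparison, Glyma.06G148400 (ERF114) or Glyma.05G063600 against nano-SiO2, and Glyma.12G226600 against MT. The lack of calls does not show equal levels. All libraries of the combined spray lay below all MT libraries in Glyma.12G226600 and above them in Glyma.06G117200. In Glyma.05G063600 they all lay above the nano-SiO2 libraries.

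Subgroups of the tested factors took different directions. With MT, 10 of 11 tested group IX genes and 12 of 12 of group VIII had a log2 change above 0, with medians of 0.55 and 0.29, while 0 of 9 of group III and 0 of 3 of group V did, with medians of -0.28 and -0.68; the median of all tested genes was -0.05. These counts were the same after quantile normalization, and after median-ratio scaling 0 of 8 of group III did. Group VIII rested in part on MT 2, without which 8 of 12 were above 0 and the median was 0.12; the median of group III was -0.46 without control 3. Called were 3 of group IX and 2 of group VIII, all higher (1.66% of all tested genes), and 1 of group III and 1 of group V, both lower (1.69%). With nano-SiO2+MT, 10 of 11 of group IX (median 0.24), 9 of 12 of group VIII (0.25), 1 of 9 of group III (-0.23) and 0 of 3 of group V (-0.44) were above 0. Without nano-SiO2+MT 3, 4 of 9 of group III were above 0 with a median of -0.06, and its median was -0.12 without control 1 and -0.40 without nano-SiO2+MT 2; the median of group IX was 0.36 without control 1. Group III here includes Glyma.11G014800 (ERF020), whose group is uncertain. Group IX includes Glyma.12G226600 (ERF6), of which the same holds. All comparisons against control share the same 3 control libraries. With nano-SiO2 alone the medians lay nearer 0: 0.10 for group IX, 0.08 for group VIII and -0.10 for group III, beside 0.10 for all tested genes.

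Summed over all 32 genes of group IX, FPKM was 107, 102 and 96.9 with nano-SiO2+MT, 132, 117 and 101 with MT, 75.2, 96.7 and 82.3 with nano-SiO2, and 73.5, 65.8 and 64.2 in control leaves. The controls were below all sprayed libraries, and Glyma.20G070000 and Glyma.20G070100 held 48.0% to 63.5% of each sum. Summed over the 18 genes of group V, FPKM was 6.98 ± 2.95 with nano-SiO2+MT, 5.46 ± 0.791 with MT, 8.09 ± 2.42 with nano-SiO2 and 9.09 ± 0.160 in control leaves (SD, n = 3).

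**Figure D4:**
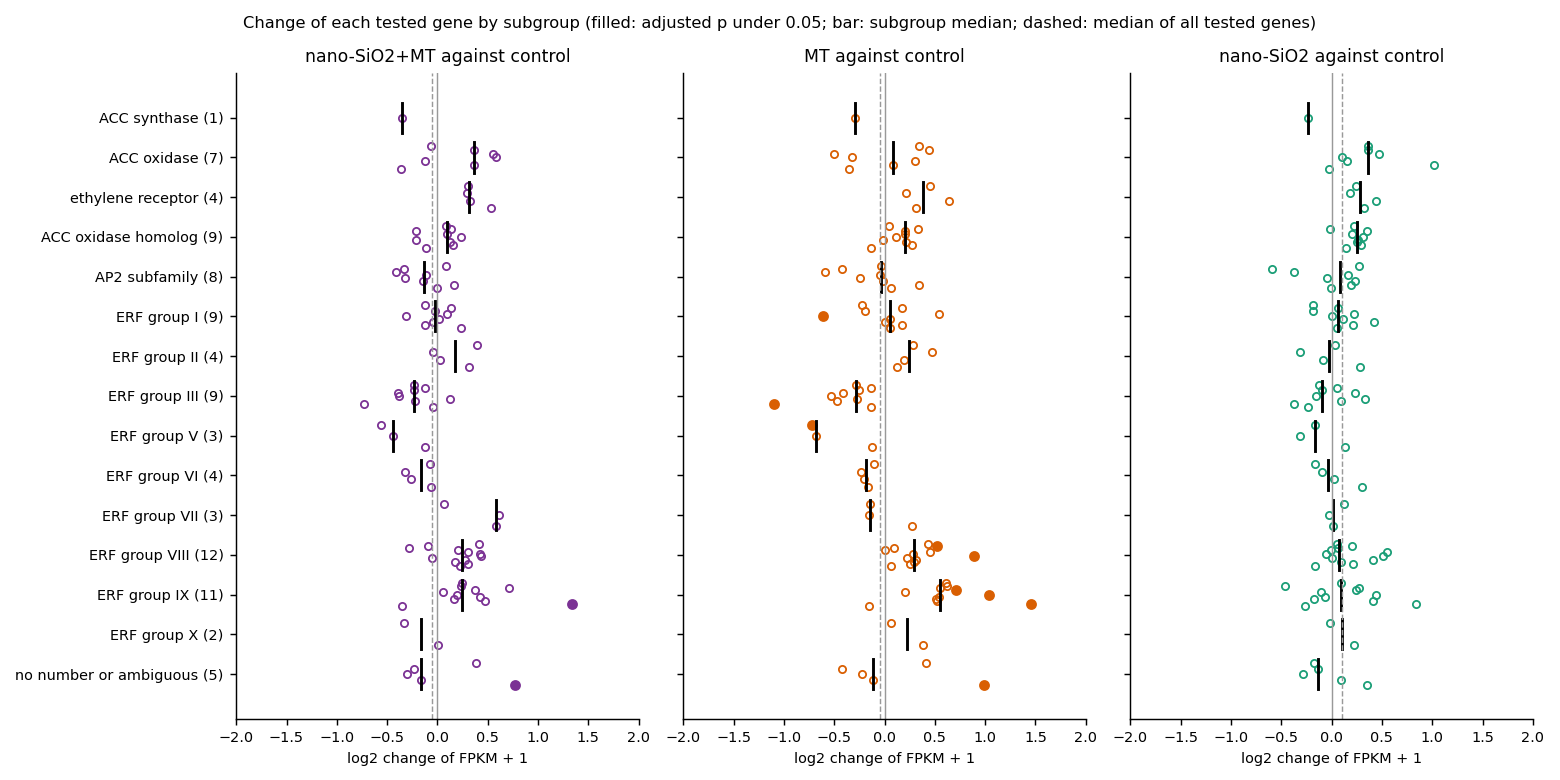
Log2 change of FPKM + 1 against control for each tested gene (points, filled where called), by subgroup with the number of tested genes in brackets, from left to right for nano-SiO2+MT, MT and nano-SiO2; black bars are subgroup medians and the dashed line is the median of all tested genes. With MT, group IX (median 0.55) and group VIII (0.29) lie right of 0 and group III (-0.28) and group V (-0.68) left of it.

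The most abundant factors were not called in any comparison. Glyma.07G044300, described as ERF7, a group VIII repressor in Arabidopsis, had 72.7, 60.1 and 76.7 FPKM in nano-SiO2+MT leaves, 77.8, 67.8 and 87.6 FPKM in MT leaves, 79.8, 81.6 and 87.6 FPKM in nano-SiO2 leaves, and 48.0, 61.4 and 60.1 FPKM in control leaves. Nano-SiO2 and MT libraries all lay above the controls, those of the combined spray overlapped them, and no comparison was called (log2 changes 0.30, 0.45 and 0.55, SE 0.14, adjusted p = 0.43, 0.107 and 0.154); MT against control had an adjusted p of 0.0475 after median-ratio scaling. Glyma.02G087400, described as TOE3 of the AP2 subfamily, which in Arabidopsis delays flowering, averaged 32.6 FPKM with log2 changes of 0.08, -0.03 and 0.27 (adjusted p of at least 0.57). Over the 8 tested genes of the AP2 subfamily the median change was -0.13, -0.04 and 0.08 for nano-SiO2+MT, MT and nano-SiO2. Glyma.15G152000, described as RAP2-3 of group VII, the ERFs that in Arabidopsis are stable only at low oxygen, had 30.0, 29.5 and 30.4 FPKM in nano-SiO2+MT leaves, 26.6, 31.8 and 16.2 FPKM in MT leaves, 16.1, 16.4 and 29.5 FPKM in nano-SiO2 leaves, and 26.7, 17.4 and 16.3 FPKM in control leaves. It was even in the combined spray and split into high and low libraries in every other group (adjusted p of at least 0.4 against control).

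**Figure D5:**
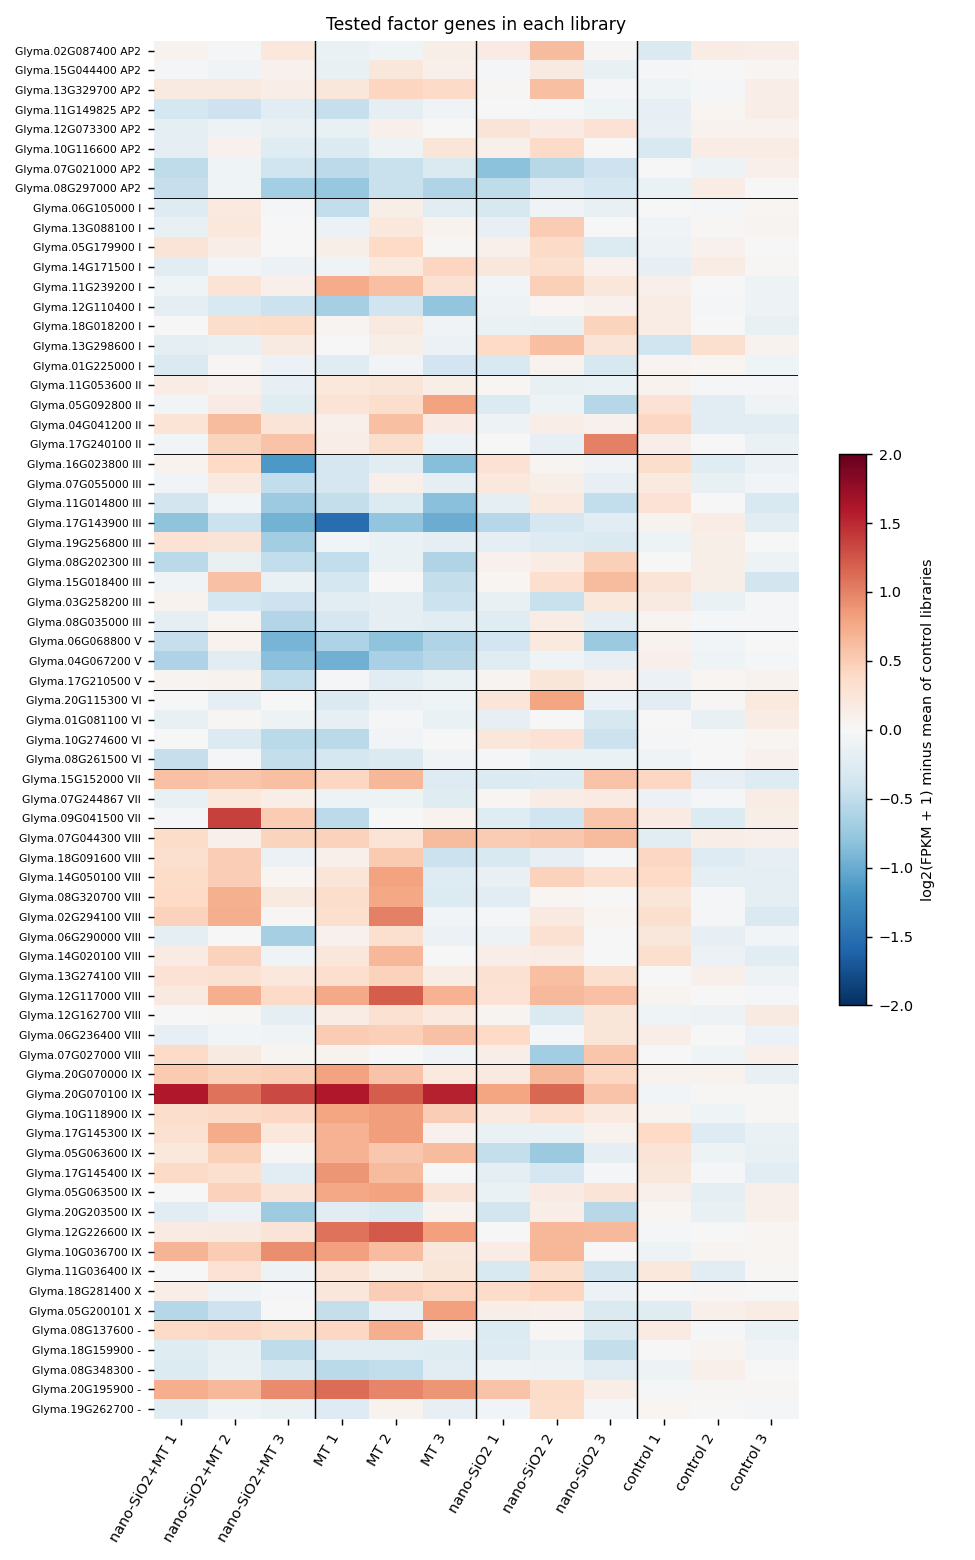
Log2(FPKM + 1) minus the mean of the control libraries for the 70 tested factors (rows, by subgroup given after the identifier, a dash for none, and by mean level within it) in the 12 libraries (columns, from left to right nano-SiO2+MT, MT, nano-SiO2 and control). The row of Glyma.20G070100 is the deepest red over the MT and combined columns, and single libraries such as MT 2 and nano-SiO2+MT 2 are redder over group VIII than the others of their groups.

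Genes next to this system in the pathway were described from lists made by search words. None of 35 tested signal transduction genes (EIN3-like, EIN3-binding F-box, CTR1 and others) was called in any of the 7 limma tests. With MT, 3 of the 35 had an unadjusted p under 0.05, beside 16.8% of all tested genes. Their median change with MT was -0.01 over all 35. Of 18 tested genes of the methionine cycle, which supplies S-adenosylmethionine, 2 were called lower with MT (1.69% of all tested genes) and 0 in the other comparisons against control, and the F test called 4 (4.12% of all tested genes). Adenosylhomocysteinase Glyma.11G254700 had 7.60, 16.5 and 11.8 FPKM in nano-SiO2+MT leaves, 6.51, 8.56 and 6.33 FPKM in MT leaves, 16.5, 26.1 and 34.5 FPKM in nano-SiO2 leaves, and 18.1, 18.9 and 20.9 FPKM in control leaves (MT against control log2 -1.33, SE 0.26, adjusted p = 0.0155). MT libraries were below the controls, and those of nano-SiO2 spread widely. Methionine synthase Glyma.19G114500 changed by -1.11 with MT (SE 0.27, adjusted p = 0.0429). Both enzymes also serve methylation and lignin synthesis, and the xylem markers given above were lower in the same libraries; their part here was not tested either.

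Chitinases and pathogenesis-related proteins, which include GCC-box targets of ERFs, were few. Of 11 tested, 2 were called higher with nano-SiO2+MT, 2 with MT and 1 with nano-SiO2, where 0.729%, 1.66% and 0.389% of all tested genes were called higher. Endochitinase Glyma.01G160100 had 9.37, 13.1 and 12.0 FPKM in nano-SiO2+MT leaves, 7.43, 6.77 and 8.85 FPKM in MT leaves, 10.3, 11.0 and 12.8 FPKM in nano-SiO2 leaves, and 5.57, 5.60 and 5.69 FPKM in control leaves. It was highest in the groups with nano-SiO2 (log2 0.90, adjusted p = 0.00804, with nano-SiO2+MT and 0.89, adjusted p = 0.012, with nano-SiO2). Endochitinase PR4 Glyma.13G346700 changed by 0.68 with MT (SE 0.14, adjusted p = 0.0211). None of the 6 tested DREB and PTI genes, relatives of these factors under other names, was called in any limma test. With MT, 2 of the 6 had an unadjusted p under 0.05, beside 16.8% of all tested genes.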

How the data were processed

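Leaf mRNA was measured in 12 libraries of 4 groups. Per the file headers, the authors deposited gene-level FPKM, 1 column per library. DESeq2 1.34.0 and R 4.1.2 appear in the submitters' processing notes; for the aligner, the quantifier and strandedness, "not given in the sources used here" applies. Oligo(dT) selection precedes library preparation, per the labels' protocols. Depth is not stated in FPKM; relative depth was taken from the commonest ratio between low values of library pairs, and counting error is unknown. The table's p-value and q-value columns name no comparison and were not used.

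Log2(FPKM + 1) was fitted with limma 3.58.1 in R 4.3.3 (a mean per group, eBayes with trend and robust settings), with 28260 of 46446 genes passing 1 FPKM in 3 libraries. The interaction is the MT effect with nano-SiO2 minus that without it. Tests of single comparisons were two-sided. The fit was also run on simulated log values with normal errors, as limma assumes, so that run cannot check the model on FPKM. A simulated log2 change of 1 was recovered in 74% to 85% of changed genes in comparisons of 2 groups. In the interaction it was recovered in 49%. Changed genes were drawn only from genes above a minimum mean level, so these shares do not cover the lowest tested genes. Subgroups were assigned here from Arabidopsis names and numbers in the descriptions, with approximate limits around group II and between groups VIII and IX. ACC oxidase was told from homologs by its orthology number. Alternatives changed the pseudocount, filter, scaling, libraries, variance model and block.

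Members and lists were chosen with earlier results of these data known. Named were every called member, the 3 most abundant of each role and up to 2 called genes per neighbouring list, with library values for called synthesis, receptor and leading factor genes; further genes were named after their values were seen. All libraries carry 1 batch label. No identifier matched the RefSeq table (assembly Glycine_max_v4.0), so no sequences or coordinates are given.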

Additional observations from a re-analysis of the deposited data

Results flagged for a closer look

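The MT effect on Glyma.12G226600 (ERF6) differed between leaves with and without nano-SiO2 by a test of the difference itself: the interaction was -1.29 on the log2 scale (SE 0.25, limma adjusted p = 0.0366). Its mean FPKM was 1.22 ± 0.0744 with nano-SiO2+MT, 3.01 ± 0.551 with MT, 1.68 ± 0.653 with nano-SiO2 and 0.933 ± 0.0545 in control leaves (SD, n = 3). All 3 libraries of the combined spray lay below all 3 MT libraries. The call was lost in 9 of 12 fits that left out a library, and the change stayed below 0 in all 12, from -1.51 to -1.17.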

How the results depend on the processing

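Called members were recounted in limma under each alternative. In MT against control the count was 9, 2 among genes with a mean of at least 5 FPKM, 3 past a log2 change of 1 in size, and 4 to 10 over the fits that left out a library (4 and 5 without control 2 and control 3). In nano-SiO2+MT against control it was 2, and 1 at a mean of at least 5 FPKM, past a log2 change of 1 in size and without control 1 and nano-SiO2 2 together, with 1 to 3 over leave-one-out. In the interaction it was 1, and 0 with no filter, at a mean of at least 5 FPKM and without control 1 and nano-SiO2 2, with 0 to 1 over leave-one-out. The F test gave 8, 2 at a mean of at least 5 FPKM and 2 to 8 over leave-one-out (2 without MT 1, 3 without control 2). In nano-SiO2 against control it was 0, 1 after quantile normalization (Glyma.07G021000, AP2-like, adjusted p = 0.0449) and 0 to 1 over leave-one-out. In nano-SiO2+MT against nano-SiO2 it was 0, 1 with no filter and 0 to 1 over leave-one-out, and in nano-SiO2+MT against MT 0, and 0 to 1. Fewer genes enter under the 5 FPKM filter; the other causes were not tested. No called change reversed its sign under any alternative.

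Same-numbered libraries deviated together in some pairs and not in others (correlations from -0.34 to 0.53, over 0.1 in 9 of 18 pairs). Between MT and nano-SiO2+MT they were 0.14, 0.38 and 0.36 for numbers 1, 2 and 3. Of 12 libraries, 6 correlated best with their own number. The numbers were not taken as pairs in the main fit. With the replicate block the counts were 10 for MT (Glyma.08G297000 and Glyma.11G014800 gained, with adjusted p of 0.0249 and 0.046, and ERF4 lost), 2 for the combined spray, 0 for nano-SiO2, 1 for the interaction and 8 for the F test.

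With no filter, the median change of group IX with MT was 0.03 (21 of 31 genes with a value above 0) and that of group III 0.0, since most added genes are near 0 FPKM. Scaling moved the median of all genes by over 0.1 in nano-SiO2+MT against nano-SiO2 (from -0.15 to 0.00) and in the interaction (from -0.10 to 0.00). Precision for genes near 1 FPKM is limited by a depth that is not known.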
